A study of Mus musculus with 4 samples.

Results

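The proneural and neuronal basic helix-loop-helix (bHLH) factors are 6 genes here, Neurog1, Neurog2, Neurod1, Bhlhe22, Tcf4 and Tcf12, chosen by name. All 6 had a row among the 11747 genes or gene groups of the deposited table. The table names 5 of them, and Tcf12 was found by its RefSeq accessions because its row carries no symbol. The study differentiated mouse embryonic stem cells, derived from the A172LoxP line, into motor neurons. The cells carry a transgene for a transcription factor that is switched on by adding the antibiotic doxycycline. All cultures were embryoid bodies, floating aggregates of the cells, that received 0.5 µM retinoic acid and 1 µM purmorphamine, a Sonic hedgehog agonist, for 2 days. The Dox+ group then had 2 µg/mL doxycycline for a further 2 to 3 days (libraries 2 and 8 of the table), and the Dox- group had vehicle for the same time (libraries 1 and 7). The labels do not tell whether each library had its own culture, so every p-value here speaks of these 4 libraries, whose spread may be technical.

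bHLH proteins bind DNA as dimers at E-boxes, short sites of the form CANNTG. Tissue-specific members such as the neurogenins pair with broadly expressed E proteins, and Id proteins, which lack the basic DNA-binding region, take E proteins out of such pairs. In the ventral neural tube, Neurog2 acts in motor neuron progenitors alongside Olig2 and promotes cell cycle exit and neuronal differentiation. Hes repressors, which Notch signalling maintains in progenitors, keep the proneural genes down in cells that have not yet begun to differentiate.

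Estimated reads ranged from 22434755 to 30235763 per library, and normalized counts summed to between 26449555 and 27047458. All 7 motor neuron markers (Mnx1, Isl1, Isl2, Chat, Slc18a3, Lhx4, Prph) were listed, and their summed normalized counts were 3472 and 2927 in Dox+ libraries 2 and 8, against 10425 and 10517 in Dox- libraries 1 and 7. The 8 neural progenitor markers summed to 33461 and 37170 in the Dox+ libraries and to 32930 and 34037 in the Dox- libraries. Vim made up most of each sum, and 0 of the 8 passed the test below. Both Dox+ libraries lay above both Dox- libraries for Sox2, Pax6, Olig2 and Sox1, and below them for Nes. For Sox9, Hes5 and Vim the groups overlapped. Over all rows the groups did not overlap in 53.2%. The 5 listed of 7 V2 interneuron markers summed to 3074 and 2978 in the Dox+ libraries. In the Dox- libraries they summed to 2199 and 1795, and Lhx3 made up most of each sum. Of these markers 2, Sox14 and Sox21, rose, as did 0.579% of all rows. Sox14 had 0 and 1 estimated reads in Dox- libraries 1 and 7. Lhx3, Gata2 and Gata3 did not pass the test below, with log2 changes, Dox+ minus Dox-, of 0.55, -0.22 and -0.50. Of the 12 markers of V1, V0 and dorsal interneurons only Lhx1 and Foxp2 were listed. They summed to 755 and 774 in the Dox+ libraries and to 1495 and 1178 in the Dox- libraries, and Lhx1 made up most of each sum. Neither passed the test below. The log2 change was -0.97 for Lhx1, whose groups did not overlap, and -0.24 for Foxp2, whose groups overlapped. In bulk RNA, fewer cells of a type and less RNA per cell cannot be told apart.

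None of the 6 bHLH genes passed the test between Dox+ and Dox- cultures, and none reached an unadjusted p under 0.05, as 21.1% of all rows did. The test was limma's moderated test on log2(normalized count + 1), with p adjusted by Benjamini-Hochberg over all 11747 rows and a threshold of 0.05. It called 2.37% of all rows, 0.579% higher and 1.79% lower with doxycycline. The estimated log2 change, Dox+ minus Dox-, was above 0 for 4 of the 6 genes and below 0 for the 2 neurogenins, with a median of 0.13, beside a median of 0.002 over all rows. In 2 of the 6 genes, the E proteins Tcf4 and Tcf12, both Dox+ libraries lay above both Dox- libraries, and over all rows the groups did not overlap in 53.2%.

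**Figure D1:**
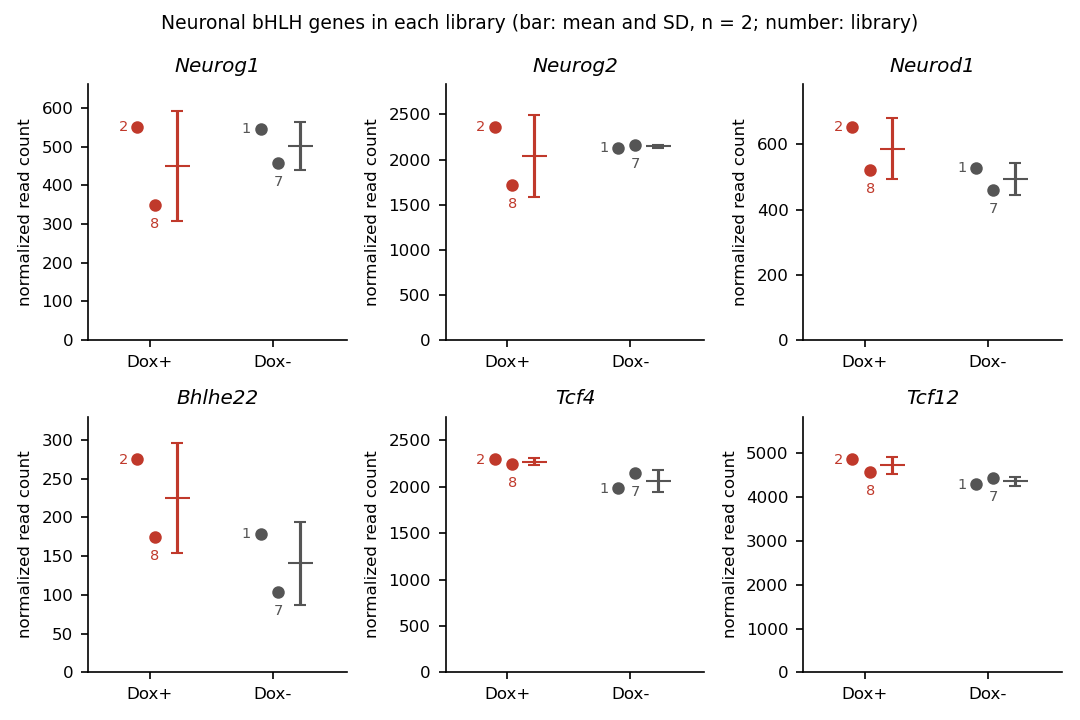
Normalized read counts (linear axis from 0) of the 6 bHLH genes in the Dox+ libraries 2 and 8 (red) and the Dox- libraries 1 and 7 (grey), with the mean and SD of each group (n = 2). The groups overlap for Neurog1, Neurog2, Neurod1 and Bhlhe22, while for Tcf4 and Tcf12 both Dox+ libraries lie slightly above both Dox- libraries.

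The 2 neurogenins are the proneural factors of the set and stand at the top of the neuronal cascade. Their start sites are shown because the genes lie on different chromosomes and share a run of bases there. Below are the 20 bases before and the 10 bases from the transcription start, from RefSeq promoters on GRCm38.p6, at chr13:56252171-56252200 (minus strand) for Neurog1 and chr3:127633116-127633145 (plus strand) for Neurog2.
Neurog1: ggtcctgaggccgGTCGTGTGCCAcacttg
Neurog2: ggttttaaggagaGTCGTGTGCCAgacacg
The capitals mark a run of 11 bases that both promoters hold at the same place, from 7 bases before the start, and 21 of the 30 positions were identical. On either strand, 3 of 32851 promoters hold this run, those of Neurog1, Neurog2 and Rab14. It was picked as the longest run the neurogenins share, so their place among the holders was fixed in advance. Runs of 11 bases were also shared by Neurod1 and Tcf12 (held by 11 promoters) and by Neurod1 and Neurog1 (held by 21), at differing distances from the start.

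Neurog2 had 2360.3 and 1717 normalized counts in Dox+ libraries 2 and 8, against 2133 and 2160.3 in Dox- libraries 1 and 7. The Dox+ libraries lay on both sides of the Dox- libraries, which were close together. The log2 change was -0.09 ± 0.15 (SE; limma, adjusted p = 0.771), with a 95% interval from -0.46 to 0.28, or a fold of 0.726 to 1.21.

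Neurog1 had 551 and 349 normalized counts in Dox+ libraries 2 and 8 and 546 and 457 in Dox- libraries 1 and 7. Library 8 was the lowest of the 4, as for Neurog2, and library 2 was level with library 1. The log2 change was -0.19 ± 0.23 (SE; limma, adjusted p = 0.685), with a 95% interval of the fold from 0.595 to 1.29. The sign of both neurogenins rested on library 8, since without it the log2 change was 0.14 for each (limma, adjusted p = 0.747 for Neurog1 and 0.552 for Neurog2).

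The 2 Dox+ libraries differed from each other in the neurogenins by more than counting error. From estimated reads, library 2 over library 8 gave a ratio of 1.58 for Neurog1, with an exact 95% counting interval of 1.38 to 1.81, and of 1.37 for Neurog2, with an interval of 1.29 to 1.46. Library 1 over library 7, both Dox-, gave 1.19 (1.05 to 1.35) for Neurog1 and 0.987 (0.930 to 1.05) for Neurog2. These intervals rest on 396 to 611 estimated reads per library for Neurog1 and 1947 to 2387 for Neurog2, and cover counting error only.

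Neurod1 encodes a differentiation factor that neurogenins switch on in several neuronal lineages. The 250 bases before its RefSeq start, at chr2:79456637-79456886 on GRCm38.p6 (minus strand), are shown because they hold a single E-box, in capitals.
Neurod1: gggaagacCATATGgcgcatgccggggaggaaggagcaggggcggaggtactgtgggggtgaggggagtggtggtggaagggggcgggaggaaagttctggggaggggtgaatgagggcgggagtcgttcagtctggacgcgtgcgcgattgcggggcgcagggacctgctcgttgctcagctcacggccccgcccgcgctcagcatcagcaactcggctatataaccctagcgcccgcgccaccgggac
The letters CATATG, which read the same on both strands and are 1 form of CANNTG, begin 242 bases before the start. They occur in 3.91% of the 32851 promoters of 300 bases, and CANNTG in any form in 72.3%. In the whole window of 300 bases Neurod1 and Neurog1 hold CANNTG at 1 place each, that of Neurog1 being the letters that end its sequence above, Neurog2 at 0 places and the 3 promoters of Tcf12 at 1 or 2 places each. A match of letters is a description and not a bound site.

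Neurod1 had 653 and 521 normalized counts in Dox+ libraries 2 and 8, against 529 and 459.5 in Dox- libraries 1 and 7. The groups overlapped, since Dox+ library 8 lay just below Dox- library 1. The log2 change was 0.24 ± 0.15 (SE; limma, adjusted p = 0.400), and the 95% interval of the fold ran from 0.923 to 1.52. Relative to both neurogenins together, in counts per kilobase of transcript, Neurod1 stood at 0.173 and 0.195 in the Dox+ libraries and at 0.151 and 0.136 in the Dox- libraries. This ratio does not depend on the scaling of the libraries, and both Dox+ libraries were above both Dox- libraries. In an exact two-sided permutation test over the 4 libraries p was 0.333, the smallest value this design allows.

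Bhlhe22, also known as Bhlhb5, is a repressor related to the Olig factors that acts in spinal interneurons of dorsal and ventral classes. It had 275 and 175 normalized counts in Dox+ libraries 2 and 8, against 179 and 103 in Dox- libraries 1 and 7. Dox+ library 2 was the highest and Dox- library 7 the lowest, while Dox+ library 8 and Dox- library 1 were nearly level, so the groups overlapped. The log2 change was 0.69 ± 0.33 (SE; limma, adjusted p = 0.309), a fold of 1.61 with a 95% interval from 0.908 to 2.85. In size the estimate exceeded that of 96.4% of all rows, but on the same log2 scale the 2 Dox+ libraries differed by 0.65 and the 2 Dox- libraries by 0.79. Leaving out library 1, 7, 2 or 8 in turn gave 1.08, 0.29, 0.36 and 1.01, and none of these passed (limma, lowest adjusted p = 0.194).

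Bhlhe22 had the fewest reads of the 6 genes, from 96 to 233 estimated reads per library. Library 1 over library 7, both Dox-, gave a ratio of 1.73 with an exact 95% counting interval of 1.35 to 2.24, and library 2 over library 8, both Dox+, gave 1.57 (1.30 to 1.91). Both differences between libraries of 1 group exceeded counting error. Bhlhe23, a close relative, had 149 and 149.95 normalized counts in the Dox+ libraries and 76.0 and 112 in the Dox- libraries. That log2 change, 0.69 ± 0.24, did not pass (limma, adjusted p = 0.191). Bhlhe23 was singled out after its values were seen.

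Tcf4 and Tcf12 encode E proteins, also called E2-2 and HEB, the common partners of the factors above. In humans, loss of 1 copy of TCF4 causes Pitt-Hopkins syndrome, a disorder of brain development, and this gene is distinct from Tcf7l2 of the Wnt pathway, which was once given the same name. Tcf4 had 2293 and 2239 normalized counts in Dox+ libraries 2 and 8, against 1979 and 2142 in Dox- libraries 1 and 7. Both Dox+ libraries were above both Dox- libraries by a small margin. The log2 change was 0.14 ± 0.07 (SE; limma, adjusted p = 0.350), with a 95% interval of the fold from 0.970 to 1.25.

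Tcf12 had 4862 and 4582 normalized counts in Dox+ libraries 2 and 8 and 4289 and 4438 in Dox- libraries 1 and 7. The order of the libraries was again both Dox+ above both Dox-. The log2 change was 0.11 ± 0.07 (SE; limma, adjusted p = 0.381), with a 95% interval of the fold from 0.968 to 1.21. Tcf3, the remaining E protein, had 11110.5 and 11866 normalized counts in the Dox+ libraries and 10246 and 10909 in the Dox- libraries. Its groups did not overlap either, and its log2 change of 0.12 ± 0.07 did not pass (limma, adjusted p = 0.365). Groups that lay apart with the Dox+ libraries higher made up 26.7% of all rows.

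Levels can be compared between genes only per length, here as normalized counts per kilobase of the mean length of the matching GENCODE M21 transcripts, which takes no account of which isoforms were present. Tcf12 was the highest of the 6, at 1330 and 1254 per kilobase in Dox+ libraries 2 and 8 and at 1174 and 1214 in Dox- libraries 1 and 7. Neurog2 followed, with 1060 and 771 in the Dox+ libraries and 958 and 970 in the Dox- libraries, so that in every library it had the highest level of the 4 members that are not E proteins. Tcf4 came next, with 374 and 365 in the Dox+ libraries and 323 and 349 in the Dox- libraries.

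Neurog1 had 327 and 207 per kilobase in the Dox+ libraries and 324 and 271 in the Dox- libraries. Neurod1 had 239 and 191 in the Dox+ libraries and 194 and 168 in the Dox- libraries. These neighbours in the order were not fully separate, since Neurog1 overlapped with Neurod1 in the Dox+ libraries and with Tcf4 in the Dox- libraries. Bhlhe22 was lowest in all 4 libraries, at 82.1 and 52.2 per kilobase in the Dox+ libraries and 53.4 and 30.8 in the Dox- libraries.

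**Figure D2:**
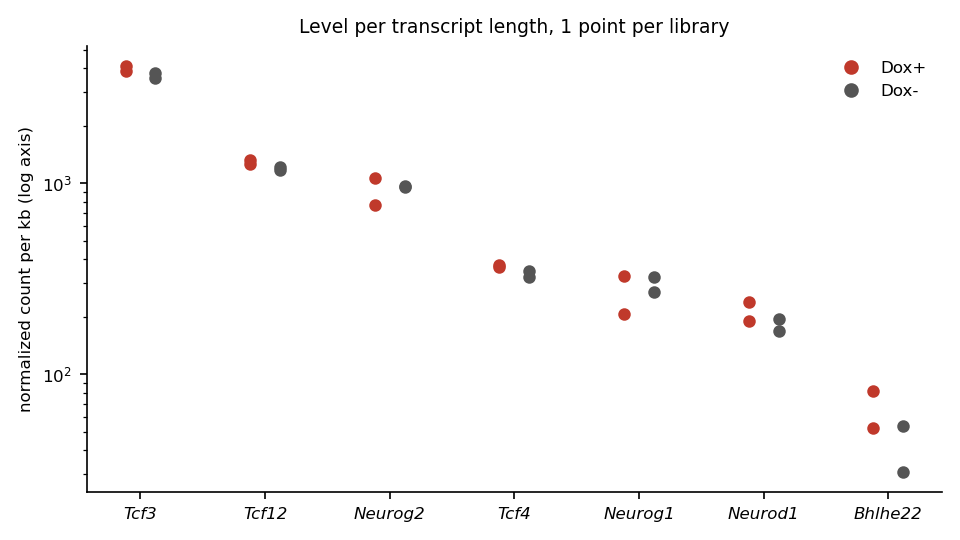
Normalized counts per kilobase of transcript (log axis) of the 6 bHLH genes and of Tcf3, with 1 point for each Dox+ library (red) and each Dox- library (grey). Tcf3 is highest and Bhlhe22 lowest in every library, and the 2 Dox+ libraries lie farther apart for Bhlhe22, Neurog1 and Neurog2 than for the others.

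Ratios within a library describe the balance of the family without reference to library scaling. Per kilobase, Neurog2 stood at 3.25 and 3.72 times Neurog1 in the Dox+ libraries and at 2.96 and 3.58 times in the Dox- libraries, and the groups overlapped. Tcf12 stood at 3.56 and 3.44 times Tcf4 in the Dox+ libraries and at 3.64 and 3.48 times in the Dox- libraries. The E proteins Tcf3, Tcf4 and Tcf12 summed to 3.25 and 4.69 times the sum of Neurog1, Neurog2, Neurod1 and Bhlhe22 in the Dox+ libraries, against 3.30 and 3.71 times in the Dox- libraries. That ratio was highest in library 8, where the neurogenins were lowest. Id1 to Id4 summed to 1.38 and 1.29 times the E proteins in the Dox+ libraries and to 1.68 and 1.44 times in the Dox- libraries, so both Dox+ libraries were lower. In an exact two-sided permutation test p was 0.333 for this ratio, the smallest value that 4 libraries allow.

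The column numbers allow a second division of the libraries, 1 and 2 against 7 and 8, and the labels do not explain these numbers. Libraries 7 and 8 were below libraries 1 and 2 by 0.72 on the log2 scale for Bhlhe22, 0.45 for Neurog1, 0.26 for Neurod1 and 0.22 for Neurog2. For Tcf4 and Tcf12 the difference, 7 and 8 minus 1 and 2, was 0.04 and -0.02. The median size of this difference over all rows was 0.09, beside a median size of 0.13 for the log2 change, Dox+ minus Dox-. The 6 listed of 10 endoderm and mesoderm markers, mostly Col4a1, summed to 102423 and 258414 normalized counts in Dox+ libraries 2 and 8 and to 139951 and 288595 in Dox- libraries 1 and 7. Afp, Apoa1, Ttr and Pecam1 of that list had no row, and the part of these cells in the members' values was not tested.

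Differences taken as library 2 minus 1 and library 8 minus 7 were 0.62 and 0.76 on the log2 scale for Bhlhe22 and 0.30 and 0.18 for Neurod1. They were 0.21 and 0.06 for Tcf4 and 0.18 and 0.05 for Tcf12. In these 4 genes both differences were above 0, as in 37.1% of all rows. Neurog1, with 0.01 and -0.39, and Neurog2, with 0.15 and -0.33, had differences of opposite sign. The labels number their replicates differently from the columns, so this pairing of libraries is a description and not part of the design.

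**Figure D3:**
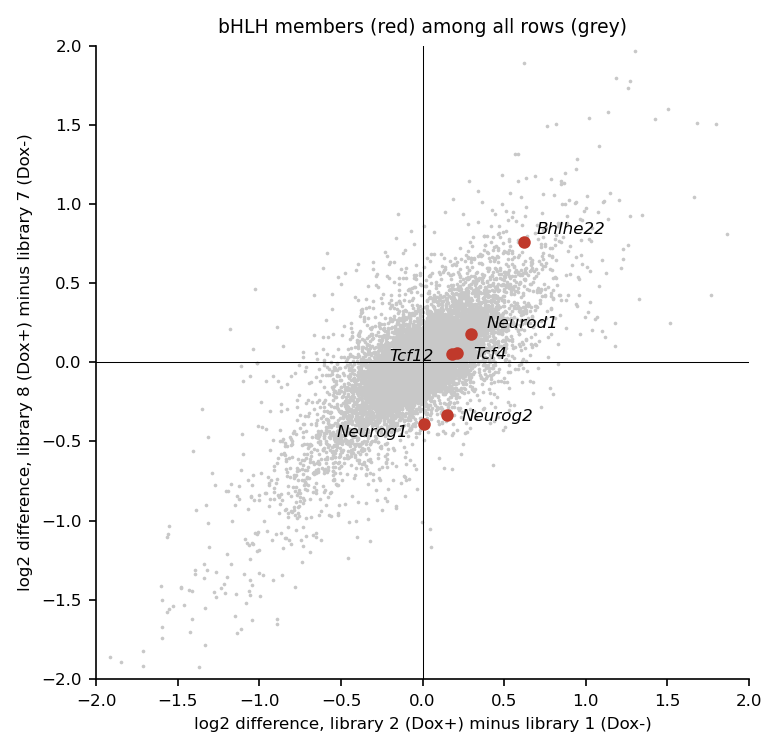
Difference of log2(normalized count + 1) between Dox+ library 8 and Dox- library 7 against that between Dox+ library 2 and Dox- library 1, for all rows (grey) and the 6 bHLH genes (red). Bhlhe22 lies far out at the upper right, the neurogenins lie below 0 on the vertical axis, and 38 rows beyond 2 on either axis are not drawn.

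The genes whose pattern over the 4 libraries was most like that of a member are named for the 3 members with a log2 range over 0.5. Likeness was the Euclidean distance between log2 profiles centred on their own mean. For Bhlhe22 the nearest was Igfbpl1 at 0.129, with 2308 and 1507 normalized counts in Dox+ libraries 2 and 8 and 1463 and 956 in Dox- libraries 1 and 7, followed by Cxcl16 and Ptchd2 at 0.228 and 0.246. For Neurog1 they were Wdr54, Zik1 and Prrx2 at 0.045, 0.108 and 0.110. For Neurod1 they were Stap2, Hoxb7 and Atxn1 at 0.016, 0.032 and 0.050, and 37 genes lay within 0.1 of it. Profiles of 4 libraries cannot single out related genes, and these names describe the table only.

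Other bHLH factors, not all of them activators, did not pass the test either. Of 19 genes on the list 8 were listed, and 0 passed, beside 2.37% of all rows. The median was 0.13. The 5 values above 0 were those of Nhlh2, Olig1, Olig2, Bhlhe23 and Bhlhe40, and the 3 below 0 those of Neurod4, Atoh8 and Nhlh1. Neurod4, a neuronal factor downstream of the neurogenins, had 1086 and 624 normalized counts in Dox+ libraries 2 and 8, against 1214 and 1169 in Dox- libraries 1 and 7. Library 8 was again the lowest, and the log2 change was -0.53 ± 0.25 (limma, adjusted p = 0.287). Nhlh1, a factor of newly born neurons, had a value of -0.29 ± 0.13, Nhlh2, of the same family, one of 0.08 ± 0.14 and Atoh8 one of -0.68 ± 0.20. Olig2, the factor of motor neuron progenitors, had a value of 0.19 ± 0.09 and Olig1, an oligodendrocyte lineage factor, one of 0.45 ± 0.19. Neurog3, Neurod2, Neurod6, Ascl2, Atoh1, Atoh7, Ptf1a, Tal1, Tal2, Olig3 and Bhlhe41 had no row, and the table lists no gene with fewer than 101 estimated reads in its highest library.

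Among the antagonists, 10 of 12 were listed and 1 fell, Id4, with 0 higher, and the list's median was 0.15. Of all rows 1.79% fell. Id4 had 388 and 382 normalized counts in Dox+ libraries 2 and 8, against 1145 and 812 in Dox- libraries 1 and 7. The Dox+ libraries were far below the Dox- libraries, by a log2 change of -1.32 ± 0.17 (limma, adjusted p = 0.0283). The call was lost without library 2 (limma, adjusted p = 0.0767) or 8 (0.117), or with no trend (0.0687). The other Id genes, with values of -0.09 ± 0.08 for Id1, 0.09 ± 0.14 for Id2 and -0.20 ± 0.07 for Id3, did not pass. Hes1, at 0.51 ± 0.16, and Hes5, at 0.23 ± 0.19, repress proneural genes, and Hes6, at -0.12 ± 0.18, counters Hes1. None of these 3 passed.

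All 25 genes on a list of neurogenesis genes regulated by or acting with neurogenins were listed. The test called 3 of them lower with doxycycline and 0 higher, beside 1.79% and 0.579% of all rows. Log2 changes were below 0 for 16 of the genes and above 0 for 9, with -0.16 as their median. Both Dox+ libraries lay below both Dox- libraries for 10 genes and above them for 7. Over all rows these shares were 26.5% and 26.7%. Dcx, a microtubule protein of young neurons, had 6870 and 5160 normalized counts in the Dox+ libraries, against 10686 and 10057 in the Dox- libraries. Elavl3, a neuronal RNA-binding protein, decreased by 0.72 ± 0.11 on the log2 scale (limma, adjusted p = 0.0388) and Ebf2, a factor of neuronal differentiation, by 1.23 ± 0.19 (limma, adjusted p = 0.0405). For Dcx the change was -0.80 ± 0.14 (limma, adjusted p = 0.0494). The 3 calls were lost without library 8 (limma, adjusted p = 0.152 for Elavl3, 0.118 for Ebf2 and 0.0812 for Dcx), those of Ebf2 and Dcx also without library 1 (0.0791 and 0.0692) and that of Elavl3 also without library 2 (0.0668). With no intensity trend they were also lost (limma, adjusted p = 0.0945 for Elavl3, 0.0743 for Ebf2 and 0.112 for Dcx), and that of Dcx was lost with TMM factors (0.0501), quantile normalization (0.0535) and robust fitting (0.0608) as well.

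The Notch ligand genes that neurogenins activate had values above 0 and did not pass, with 0.17 ± 0.08 for Dll1, 0.18 ± 0.10 for Dll3 and 0.63 ± 0.21 for Dll4. Mfng, which modifies Notch, had a value of -0.16 ± 0.14. The 8 pan-neuronal markers, of which 6 fell, summed to 51472 and 42127 normalized counts in Dox+ libraries 2 and 8, against 100858 and 88867 in Dox- libraries 1 and 7. Elavl3 is among these 6 and was already counted on the list of neurogenesis genes, and 1.79% of all rows fell.

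Of 13 co-factors of bHLH proteins 12 were listed, and 2 fell and 0 rose, with a median of -0.15. The share of all rows that fell was 1.79%. Isl1, 1 of the 2 that fell, is also among the motor neuron markers summed above. Hes6, Neurod4, Nhlh1, Nhlh2, Cbfa2t2 and Cbfa2t3 each stood on 2 lists. Olig2, Hes5 and Lhx3 are also among the cell type markers. The list counts and medians are therefore not separate from each other. Isl1, a LIM-homeodomain factor that acts with Lhx3 and Neurog2 in motor neurons, had 739 and 437 normalized counts in the Dox+ libraries, against 2331 and 2183 in the Dox- libraries (log2 change -1.99 ± 0.24; limma, adjusted p = 0.0241). It passed whichever library was left out, but not with robust fitting (limma, adjusted p = 0.0525) or with no trend (0.0676). Lmo1, a LIM-only factor, decreased by 2.02 ± 0.29 (limma, adjusted p = 0.0355), and its call was lost without library 1 (0.0691) or 8 (0.0701), with quantile normalization (0.0506) or with no trend (0.0681). Lhx3 had a value of 0.55 ± 0.17 and did not pass (limma, adjusted p = 0.155).

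Prdm8, the repressor that partners Bhlhe22, had 2742 and 1746 normalized counts in Dox+ libraries 2 and 8, against 4553 and 3908 in Dox- libraries 1 and 7. The groups were apart, as in 53.2% of all rows, but the log2 change of -0.95 ± 0.21 did not pass (limma, adjusted p = 0.0841). It did pass under 3 of the 13 alternative settings. Its value was below 0 and that of Bhlhe22 above 0, and the difference between these changes was not tested. The adaptor genes Ldb1 and Lmo4, with values of -0.14 ± 0.06 and -0.16 ± 0.08, did not pass, nor did the co-repressors Cbfa2t2, at -0.02 ± 0.07, and Cbfa2t3, at 0.02 ± 0.15.

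**Figure D4:**
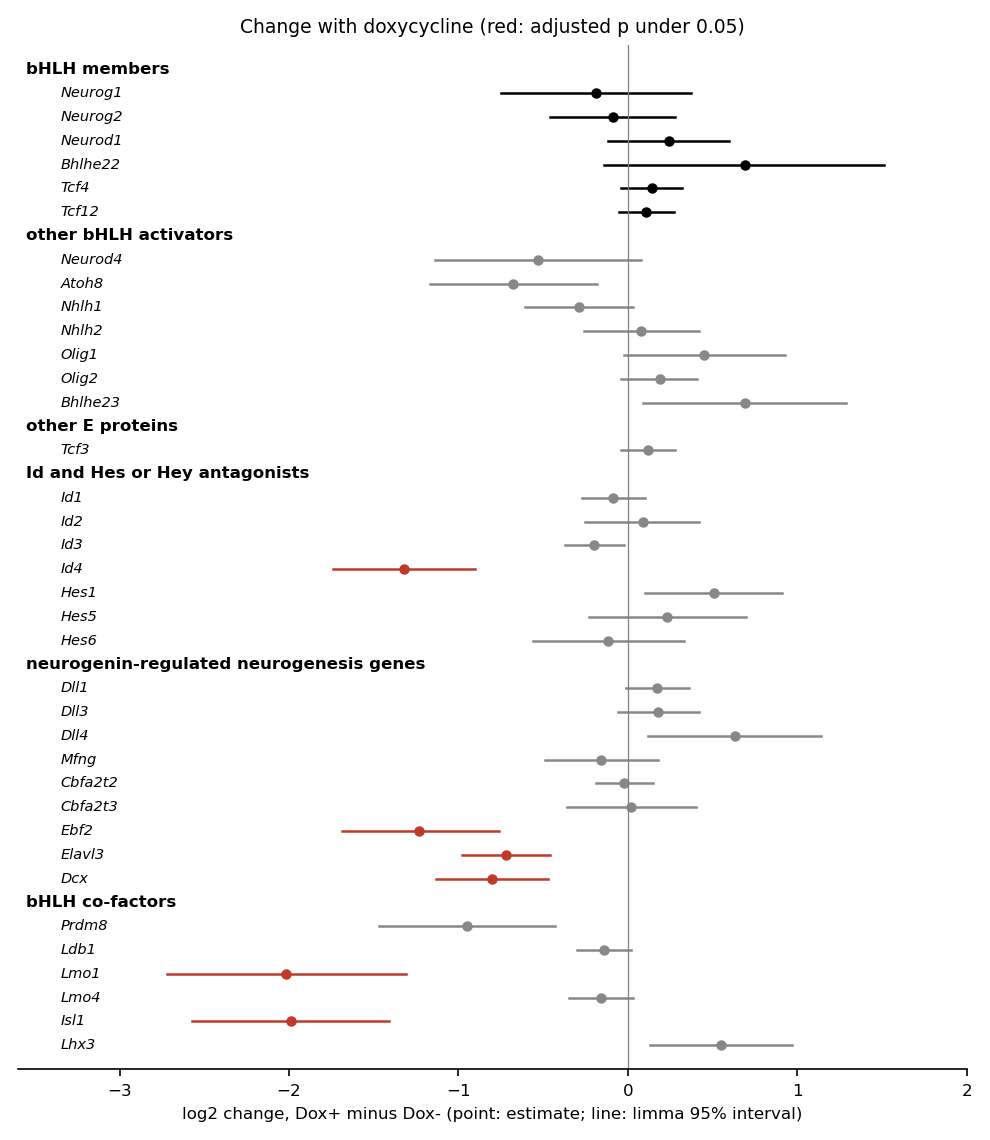
Log2 change, Dox+ minus Dox-, with its 95% interval from limma, for the 6 bHLH genes (black) and the named genes of 5 lists (grey, or red where the adjusted p was under 0.05). All 6 intervals of the bHLH genes cross 0, and Id4, Ebf2, Elavl3, Dcx, Lmo1 and Isl1 are below 0 and passed the test.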

How the data were processed

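Total RNA was sequenced from 4 Illumina TruSeq libraries, per the labels' protocols. Tools named in the submitters' processing notes are HTSeq, TopHat2, DESeq and CASAVA, with the mm9 build and no roles or versions. The deposited table holds a signal per RefSeq gene, a normalized read count that the authors obtained by dividing counts by a size factor, judging by the values. Within every library 100% of values lay within 0.1 of a whole multiple of 1 step, which gave estimated reads. At most 6 values per library lie at 20 reads or fewer, too few to establish the step from low values, so no count model was fitted and counting intervals rest on these estimates. Columns were assigned to groups by the initials in their names, and the column numbers (2 and 8, 1 and 7) are not the labels' replicate numbers. Libraries of a group differed beyond sampling noise (chi-square per degree of freedom 28.3 and 26.4).

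Values were analysed as log2(value + 1) with limma 3.58.1 in R 4.3.3, with an intensity trend, over 11747 rows. A planned filter (mean of at least 10) removed 0 rows. The limma fit was tried on simulated counts drawn independently for each library. No pairing of libraries was simulated, so that trial does not cover the structure of these libraries. Members, lists and the rule for named genes (called list genes, then up to 6 per list in list order) were chosen with earlier results of these data known. Alternatives were pseudocounts of 0.5 and 5, other filters, TMM factors, quantile normalization, no trend, robust fitting, a block and each library left out. The strand setting of the counting was not stated in any source used, so overlapping genes cannot be told apart. Promoters came from RefSeq on GRCm38.p6 for 4 of the 6 genes, by symbol. That build differs from mm9, so these coordinates are not those of the authors' files. The induced gene and 1 gene of a list are not reported here.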

Additional observations from a re-analysis of the deposited data

How the results depend on the processing

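Over 13 alternatives, the 6 bHLH genes kept their direction and their side of the threshold in 75 of 78 values. Some alternatives could hardly differ from the main fit. Dropping the filter, which had removed 0 rows, repeated that fit, and a minimum mean of 50 kept 11744 of 11747 rows. With pseudocounts of 0.5 and 5, Bhlhe22 stood at 0.69 and 0.67. The count of bHLH genes called was 0 under every alternative but the block. With 1 library left out the log2 change of Neurog1 ranged from -0.52 to 0.14 and that of Neurog2 from -0.32 to 0.14, both positive without library 8, which held the lowest value of both. With a replicate block that pairs library 2 with 1 and 8 with 7, 1 of the 6 was called, Bhlhe22 (limma, log2 change 0.69 ± 0.16, adjusted p = 0.000225), beside 3508 of all rows (29.9%). It also called 36 list genes, each counted once. The lists held 8, 1, 10, 25 and 12 listed genes, some of them on more than 1 list. Deviations from the group means correlated at 0.63 within these pairs, but 2 pairs sharing only a number do not establish a pairing. The block fit has 1 residual degree of freedom and infinite prior degrees of freedom. Its SE and p for Bhlhe22 therefore came from the trend over all rows and not from the spread of Bhlhe22 itself. Over all rows 278 were called, 105 with no trend, 419 with robust fitting and 44 to 494 with a library left out. Of the list genes 6 were called, 0 with no trend and 1 to 12 with a library left out. For the 30 named list genes, 343 of 390 values kept their direction and their side of the threshold. In 21 a call was lost, in 17 a call was gained and in 9 the direction reversed. Directions reversed for list genes with small changes. With quantile normalization Cbfa2t2 was at 0.01 and Cbfa2t3 at -0.0043. With 1 library left out Nhlh2 ranged from -0.13 to 0.28, Id2 from -0.08 to 0.26, Hes6 from -0.37 to 0.13 and Cbfa2t3 from -0.08 to 0.11. The cause was not tested. Of the 6 intervals of the fold, that of Bhlhe22 was the widest, from 0.908 to 2.85.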
